A study of Saccharomyces cerevisiae with 51 samples.

Results

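Budding yeast annotations contain protein-coding genes that lie partly or wholly on top of a protein-coding gene of the other strand. Every such pair was taken from the gene annotation of the genome version called before: nuclear genes of biotype protein_coding, each with an extent from the lowest start to the highest end of its records, on opposite strands and sharing 1 bp or more. There were 552 pairs, made of 1054 of the 6664 nuclear protein-coding genes (15.8%). The study made 51 ChIP-seq libraries (input DNA, histone H3 and H3 phosphorylated at serine 10, 17 of each) from BY4741 cells of 7 strains in 13 combinations of strain and treatment. The strains were wild type, ipl1-TetR-mCh, sgo1-TetR-mCh, sgo1 delta, H3-S10A, ipl1-321 and cdc15-1, kept with or without 1 nM beta-estradiol for 3 hours or heated to 37 °C for 90 minutes. The 6 files analysed hold coordinates and no value for any library, so no strain or treatment is compared and the depth of the libraries is unknown.

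Each strand of a DNA stretch can be read in 3 frames, so the same bases can encode amino acids in both directions. When both members of such a pair are transcribed, their RNAs are complementary over the shared bases. In yeast, many annotated reading frames of this kind are thought not to encode a protein and are called dubious by the Saccharomyces Genome Database; the annotation used here carries no such mark. Genes whose 3′ ends meet are called convergent below, and genes whose 5′ ends meet divergent. A pair is nested where one extent lies inside the other, and partial otherwise. Chromatin immunoprecipitation does not tell strands apart, so a signal over shared bases belongs to neither member alone.

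The counts that follow are exact for this annotation. An annotation is a single census, so the values carry no SD and no p-value. In these extents 96.7% of genes have a length that is a multiple of 3, so they are coding lengths with introns included and without UTRs; RNAs that reach further are not seen. No genome sequence was at hand, and the shared bases are described by position only.

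Divergent overlap was the commonest arrangement. It held 265 pairs (48.0%), against 186 partial convergent (33.7%) and 101 nested pairs (18.3%). Among neighbouring genes on opposite strands, with nested neighbours left out, 258 of 1771 divergent neighbours (14.6%) and 180 of 1770 convergent neighbours (10.2%) overlapped. Overlap between genes of 1 strand was rarer, with 150 pairs. The opposite-strand pairs thus made up 78.6% of all 702 overlapping pairs.

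The shared stretch was short. Its median was 264.5 bp (quartiles 151.5 and 361.25 bp, range 2 to 963 bp). By arrangement the medians were 279 bp for convergent, 257 bp for divergent and 225 bp for nested pairs. Taken pair by pair, the share of the shorter gene that was overlapped had a median of 83.1%, and that of the longer gene 17.1%. In 436 pairs (79.0%) the shorter gene was overlapped over at least 50% of its extent. Coding bases made up nearly all of it: 146706 of 148966 shared bp (98.5%) were coding in both genes, and in 535 pairs every shared base was.

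**Figure D1:**
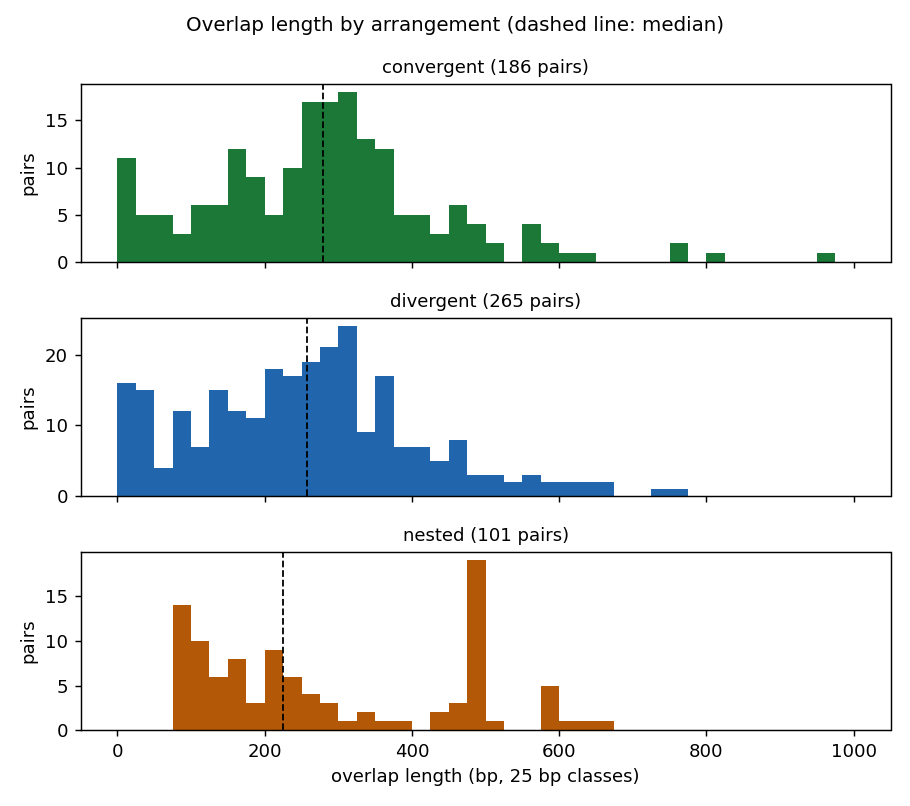
Number of pairs (vertical axis) by overlap length in bp, in classes of 25 bp, for convergent, divergent and nested pairs, with the median as a dashed line. Convergent and divergent pairs spread around medians of 279 and 257 bp, and nested pairs have a separate peak at 483 bp.

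The longest overlap was that of CDC19 (YAL038W, chromosome I, 71786 to 73288), the pyruvate kinase gene, with YAL037C-B (72326 to 73300). They share 963 bp, which is 98.8% of YAL037C-B, in convergent orientation. Next came YJR079W and AIM24 on chromosome X (808 bp), where an intron of YJR079W leaves 187 shared coding bases. JJJ1, a J-domain co-chaperone gene, shares 763 bp with YNL228W on chromosome XIV. VRP1, the verprolin gene, shares 761 bp with OPI9 on chromosome XII, and IES1, an INO80 complex subunit gene, shares 751 bp with YFL013W-A on chromosome VI. These 5 were each partial pairs. The longest member gene was NUM1 (chromosome IV, 758733 to 766979, 8247 bp), which anchors dynein at the cell cortex; it overlaps YDR149C divergently by 635 bp. The shortest members, 81 bp each, were YOR335W-A, YOR161W-A and YHR073C-B.

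Very short overlaps took few lengths. No pair shared 1, 3 or 5 bp. All 8 pairs that share 2 bp were divergent, and all 5 that share 4 bp were convergent. An enumeration of the standard codons gives the same lengths: 2 bp is the only overlap under 6 bp that divergent ATG start codons allow, and 4 bp the only one that convergent stop codons allow. The 2 bp pairs include INO80 (the chromatin remodelling ATPase gene) with YGL149W, MRP4 (a mitochondrial ribosomal protein gene) with YHL005C, ENT1 (an epsin gene) with YDL162C, and SNU56 (a U1 snRNP gene) with BUD26. The 4 bp pairs include NKP2 (YLR315W, 764808 to 765269), which encodes a kinetochore protein, with TAD3 (YLR316C, 765266 to 766358), a subunit of the tRNA adenosine deaminase, on chromosome XII. VPS75, a histone chaperone gene, meets the splicing factor gene CWC25 in the same way on chromosome XIV. At 6 bp follow SMD1 with PRP38, both genes of the splicing machinery, and YML096W with RAD10, a nucleotide excision repair gene.

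Each pair was sorted into its longer and its shorter gene. A gap between their medians is therefore built in, and no other pairing of genes was set beside it. The longer gene had a median of 1341 bp (quartiles 753 and 2061.75 bp) and the shorter one 360 bp (quartiles 314.25 and 435.75 bp). The longer gene varied with arrangement, with a median of 1764 bp in nested, 1293 bp in divergent and 1216.5 bp in convergent pairs. The shorter gene measured 225 bp in nested pairs, where it is the overlap itself, 369 bp in divergent and 366 bp in convergent pairs. Over all members, counted once, the median was 504 bp, against 1164 bp for the 5610 other genes.

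**Figure D2:**
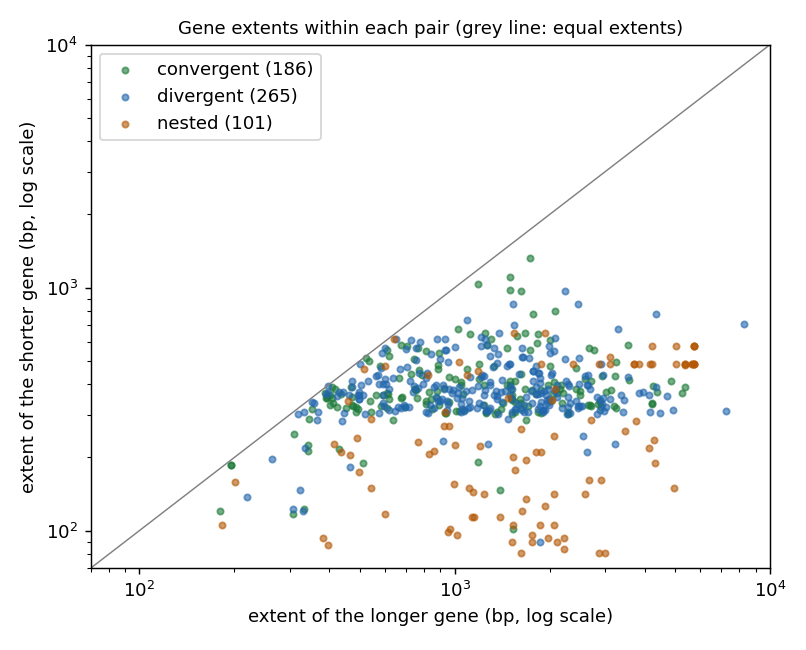
Extent of the shorter gene (vertical, bp, log scale) against the longer gene (horizontal, bp, log scale) in each of 552 pairs, coloured by arrangement, with a grey line where both are equal. Most shorter genes of partial pairs lie in a narrow band above 300 bp around medians of 366 and 369 bp, while those of nested pairs reach down to 81 bp.

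Many members were a little over 300 bp long. Of all members, 292 (27.7%) measured 300 to under 400 bp, against 368 of the other genes (6.56%). Under 300 bp lay 100 members (9.49%) and 334 other genes (5.95%). The systematic identifiers split these further. Identifiers with a suffix, such as YAL037C-B, are given to genes added after the first numbering of a chromosome. Of 227 members with a suffix, 89 (39.2%) were under 300 bp. Of 827 members without one, 11 (1.33%) were, among them LSM5, BUD26 and the metallothionein genes CUP1-1 and CUP1-2. A suffixed gene took part in 92 of 101 nested pairs (91.1%), in 75 of 265 divergent pairs (28.3%) and in 58 of 186 convergent pairs (31.2%).

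Most pairs joined a named and an unnamed gene. A gene counts as named where its gene_name differs from its gene_id. In 431 pairs (78.1%) 1 member was named, in 86 (15.6%) neither was and in 35 (6.34%) both were. With gene names from the NCBI table of assembly R64 in place of the annotation's, both were named in 19 pairs. The unnamed member was the shorter in 410 of the 431 mixed pairs (95.1%). In 72 of the 74 mixed nested pairs the inner gene was the unnamed one. Of the members 473 (44.9%) were named, against 4568 of the other genes (81.4%). Seen from the other side, 581 of 1623 unnamed genes (35.8%) and 473 of 5041 named genes (9.38%) were members.

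The NCBI gene table of assembly R64 gave a sharper division. Of the members, 554 (52.6%) had their identifier among its locus tags, against 5435 of the other genes (96.9%). Exactly 1 member was found in 494 pairs (89.5%), both in 47 (8.51%) and neither in 11 (1.99%). The member not found was the shorter one in 474 of the 494 pairs (96.0%). Of 675 genes without a match, 500 (74.1%) were members, and of 5989 genes with a match, 554 (9.25%) were. Among same-strand overlaps the split was different, with 64 of 150 pairs (42.7%) matched on both sides and 80 (53.3%) on 1. The same-strand overlaps had an upper quartile of 1298.25 bp and a maximum of 1437 bp, and 65 of the 150 pairs had no named member. Repeat copies among them were not counted apart, so this contrast is not one of strand alone.

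The shorter length of members went with this match. Members found in the table had a median of 1240.5 bp, against 1200 bp for other genes found there. Members not found had a median of 360 bp, against 321 bp for other genes not found. The length class of 300 to under 400 bp held 248 of 500 members not found (49.6%) and 44 of 554 members found (7.94%). The lower median over all members therefore goes with the larger share of unmatched genes among them.

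**Figure D3:**
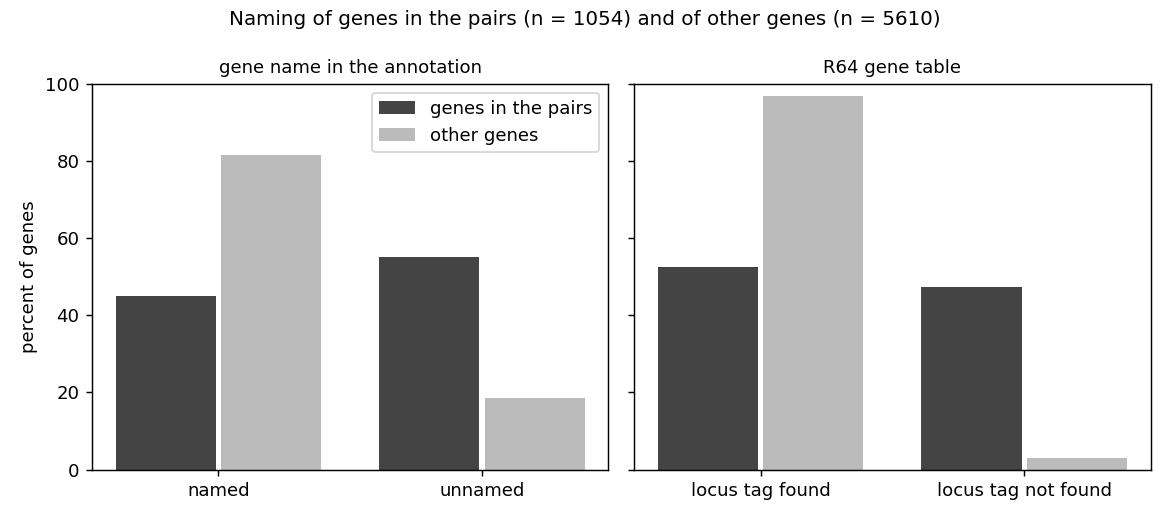
Percent of genes (vertical axis) that are named or unnamed in the annotation (left) and whose identifier is or is not a locus tag in the R64 table (right), for the 1054 genes of the pairs (dark) and the 5610 other genes (light). Named genes make up 44.9% of the pair members and 81.4% of the others, and matched genes 52.6% and 96.9%.

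Pairs matched on both sides differ in overlap from those matched on 1. The 47 pairs with both members found had a median overlap of 160 bp, against 269.5 bp in the 494 pairs with 1 member found. Overlaps under 50 bp made up 14 of the 47 (29.8%) and 32 of the 494 (6.48%). Convergent pairs were 23 of the 47 (48.9%) and 158 of the 494 (32.0%). Short convergent overlaps between known genes include CTF19 (YPL018W, 517651 to 518760), a kinetochore subunit gene, with IRC15 (YPL017C, 518734 to 520233) on chromosome XVI, which share 27 bp. ATG29, an autophagy gene, and SET6 share 24 bp on the same chromosome. VPS38, a subunit gene of a phosphatidylinositol 3-kinase complex, and DCR2 share 35 bp on chromosome XII. The divergent genes EMI1 and GRX2, a glutaredoxin gene, share 47 bp on chromosome IV.

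Among the longest overlaps between named genes, several hold a gene whose name stands for a mutant phenotype: BUD for bud-site selection and OPI for overproduction of inositol. The 5 longest convergent overlaps between named genes were HEM14, a haem synthesis gene, with BUD25 (489 bp), RPL22A with BUD28 (372 bp), NET1, a nucleolar gene of mitotic exit control, with APQ13 (355 bp), RPL43A with OPI11 (324 bp) and RPL39 with BUD19 (273 bp). The 5 longest divergent ones were VRP1 with OPI9 (761 bp), RPC53, an RNA polymerase III subunit gene, with BUD30 (557 bp), MID2, a cell wall sensor gene, with JIP3 (371 bp), INP52, a phosphoinositide phosphatase gene, with RRT16 (341 bp), and EAF1, a NuA4 subunit gene, with OPI7 (287 bp). The shortest divergent overlaps beside SNU56 and BUD26 were IMP1 with YIM2 (23 bp), RGP1 with VPS61 (25 bp), EMI1 with GRX2 (47 bp) and FAA2 with BUD25 (160 bp). BUD25 thus overlaps HEM14 at one end and FAA2 at the other. Introns leave 23 shared coding bases between FAA2 and BUD25 and 150 between RPL39 and BUD19. They leave 439 between HEM14 and BUD25, 354 between RPL22A and BUD28 and 277 between RPL43A and OPI11.

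Only 5 nested pairs had 2 named members. DID2, an ESCRT-associated gene (chromosome XI, 507939 to 508553), lies inside OPI8 (507920 to 508561), and here the inner gene is matched in the R64 table and the outer one is not. The others are NAG1 in IMO32 (492 bp, chromosome VII), SLM6 in REI1, a gene of 60S ribosome assembly (453 bp, chromosome II), VAM10 in VPS5, a retromer gene (345 bp, chromosome XV), and ADF1 in FYV5 (342 bp, chromosome III). Both members of these 4 are matched.

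Few pairs held introns. An intron-containing gene took part in 43 pairs (7.79%). Members with introns numbered 36 of 1054 (3.42%), against 282 of 5610 other genes (5.03%). Any gene with more than 1 exon record was counted, whatever the gap between the records. Both shares can thus include genes whose records are split for another reason than an intron. In 1 pair the inner gene lay wholly within an intron: YMR141W-A (chromosome XIII, 550911 to 551135, 225 bp) in RPL13B (550206 to 551207), the gene of a large-subunit ribosomal protein. This was the only pair with no shared coding base when stop codons are counted as coding, and without them there were 6 such pairs.

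The reading frames of the shared bases were not evenly placed. On opposite strands 2 reading frames can meet in 3 registers: the wobble position (the last base of a codon, where many changes leave the amino acid the same) can face the wobble, the first or the second position of the partner's codons. Wobble faced wobble in 342 of 551 pairs (62.1%), wobble faced the first position in 139 (25.2%) and wobble faced the second in 70 (12.7%). In 3 pairs an intron brought in more than 1 register, and the one with most bases was taken. Among divergent pairs wobble faced wobble in 200 of 265 (75.5%), among convergent pairs in 96 of 186 (51.6%) and among nested pairs in 46 of 100 (46.0%).

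The register varied with overlap length. Wobble faced wobble in 23 of 47 overlaps under 50 bp (48.9%), in 37 of 88 of 50 to under 150 bp (42.0%), in 127 of 200 of 150 to under 300 bp (63.5%) and in 155 of 216 of 300 bp or more (71.8%). Wobble faced the second position in 21.3%, 29.5%, 14.5% and 2.31% of the same classes. The 23 overlaps under 50 bp with wobble facing wobble include all 8 pairs of 2 bp and all 5 of 4 bp. Under 6 bp, start and stop codons allow only those lengths, and both lengths give this register. At 300 bp or more, 89 of 98 divergent pairs (90.8%) had wobble facing wobble and 0 had wobble facing the second position. Among convergent pairs of that length the counts were 55 and 4 of 80 (68.8% and 5%). Among the 38 nested pairs of that length wobble faced wobble in 11 (28.9%) and the first position in 26 (68.4%), and 23 of these 38 are the subtelomeric copies described next. Pairs matched on both sides in R64 had wobble facing wobble in 30 of 47 (63.8%), close to 308 of 493 (62.5%) with 1 match.

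**Figure D4:**
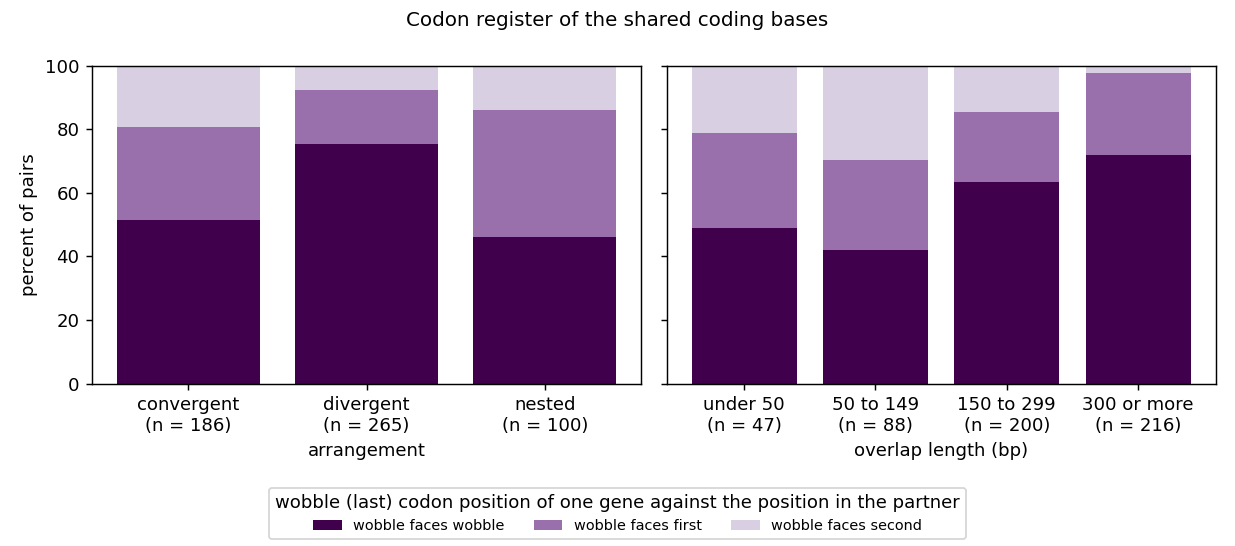
Percent of pairs (vertical axis) in which the wobble codon position of one gene faces the wobble, first or second codon position of the other, by arrangement (left) and by overlap length in bp (right), with the number of pairs below each bar. The dark share is 75.5% in divergent pairs and 51.6% in convergent pairs, and 71.8% in overlaps of 300 bp or more.

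Nested pairs contained copies of 1 arrangement. Of the 101, 23 lay within 10 kb of a chromosome end, on 12 chromosomes, and their inner genes measured 483 bp (17 pairs), 576 bp (5 pairs) or 480 bp (1 pair). In 12 the outer gene was a YRF1 gene, which encodes a helicase of the subtelomeric Y′ element, and in 11 an unnamed gene. These elements are near-identical repeats, so the 23 pairs are not separate cases. In all 23 wobble faced the first position. Without them 78 nested pairs remained, with a median overlap of 183 bp, and wobble faced wobble in 46 of 77 (59.7%). All 8 YRF1 genes were members. A like pair of copies was CUP1-1 and CUP1-2 on chromosome VIII, each of which shares 170 bp with its own 195 bp partner.

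Few genes had more than 1 partner. Of the members, 1005 had 1 partner, 48 had 2 and 1 had 3. The gene with 3 was YEL075W-A (chromosome V, 4870 to 5481), which overlaps YEL076C and YEL076C-A divergently (245 bp each; these share a strand and their 5′ end) and YEL075C convergently (137 bp). Genes with 2 included HSF1, the heat shock transcription factor gene, SPT6, a transcription elongation gene, RPB3, an RNA polymerase II subunit gene, and STE7, a MAP kinase kinase gene of the mating pathway.

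All 16 nuclear chromosomes held such pairs. The number ran from 10 on chromosome VI to 75 on chromosome IV, which is also the longest. Per 100 protein-coding genes, chromosome V had 13.7 pairs and chromosome I had 12.6, while the other 14 had 6.32 (chromosome XI) to 9.04 (chromosome XII). Most pairs on chromosomes V and I hold a gene with a suffixed identifier. Over all chromosomes such a gene took part in 31.2% of convergent, 28.3% of divergent and 91.1% of nested pairs. A link between later-added genes and the rates of chromosomes V and I was not tested. On chromosome V 25% of genes were members and on chromosome I 24.4%, against a median of 15.6% over the 16. The shared bases covered between 0.819% (chromosome XIII) and 2.00% (chromosome V) of a chromosome.

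**Figure D5:**
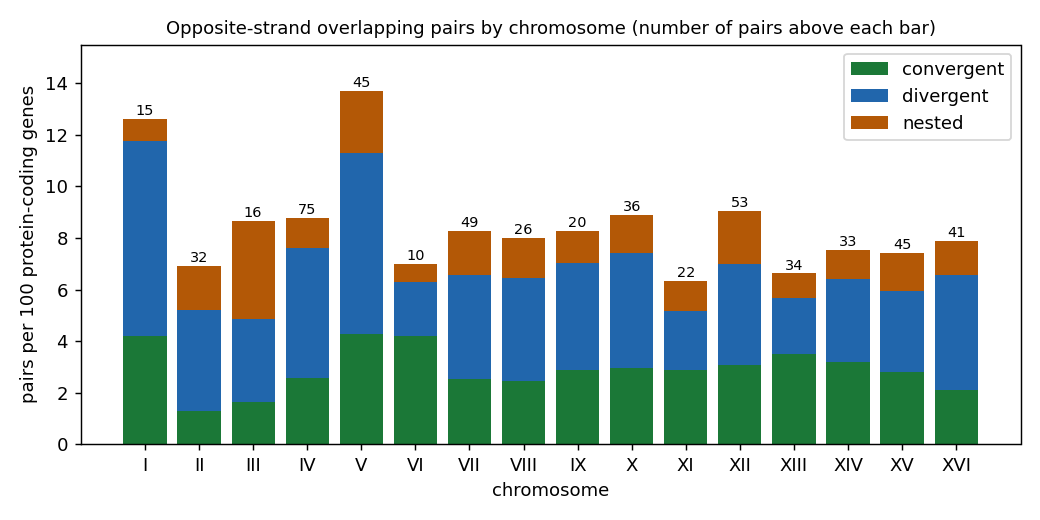
Pairs per 100 protein-coding genes (vertical axis) on each nuclear chromosome, stacked by arrangement, with the number of pairs above each bar. Chromosomes V (13.7) and I (12.6) stand above the other 14, which lie between 6.32 and 9.04.

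The makeup of the pairs differed between chromosomes in places. Divergent outnumbered convergent pairs on 12 chromosomes and convergent outnumbered divergent on 3 (VI, XI and XIII), and chromosome XIV had 14 of each. Nested pairs were the smallest class on 14. Chromosome III had 7 nested among 16 pairs (43.8%), and chromosome I had 1 among 15 (6.67%). Pairs with 1 named member were the largest class on all 16. Chromosomes IV and XII had 7 pairs each with both members named, and chromosomes I, VIII and IX had 0. Wobble facing wobble was the commonest register on 15 chromosomes; on chromosome XII it held 21 pairs, against 23 with wobble facing the first position.

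Lengths were more even. The median overlap per chromosome ran from 180 bp (chromosome VI) to 328.5 bp (chromosome XI). The median of the shorter gene ran from 342 to 396 bp, and that of the longer gene from 861 bp (chromosome V) to 1654.5 bp (chromosome III). On each of the 16 chromosomes the median length of members (435 to 639 bp) was below that of other genes (1002 to 1224 bp). On each, a smaller share of members than of other genes was named.

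Positions along the arms were compared next. The interval between the arms was taken from the last left-arm to the first right-arm gene by systematic name. Within 20 kb of it lay 35 of 1054 members (3.32%), against 340 of 5610 other genes (6.06%). Within 50 kb the shares were 12.4% and 13.9%. Within 20 kb of a chromosome end lay 71 members (6.74%) and 251 other genes (4.47%). Of these members, 41 belong to the subtelomeric repeat pairs described above. Without those genes 30 of 1013 members (2.96%) lay within 20 kb of an end. Those genes were picked because their pairs lie within 10 kb of an end, and none of the other genes was taken out. This share therefore cannot be set against that of the other genes.

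Chromosome IV is the one whose length differs between the genome versions. All 552 pairs kept their overlap length in the after annotation. On chromosome IV, 46 of 75 pairs had other coordinates after than before and 29 had equal ones. Within 20 kb of the interval between its arms lay 3 pairs. GRX6, a glutaredoxin gene (432330 to 433025), overlaps YDL011C divergently by 302 bp and YDL009C convergently by 101 bp, and kept its place. TRP1, a tryptophan synthesis gene, overlaps YDR008C convergently by 265 bp and started at 461524 after and 464947 before.

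The bins of the study often part the members. Each nuclear chromosome has 500 bins, which makes bins of 461 bp (chromosome I) to 3071 bp (chromosome IV). The shared bases touched 605 of 8000 nuclear bins (7.56%) and lay in 1 bin for 442 pairs (80.1%). The midpoints of the members fell in different bins in 220 pairs in the after grid and in 216 (39.1%) in the before grid. In the before grid, on chromosome VI this was 8 of 10 pairs and on chromosome I 11 of 15. On chromosome IV it was 20 of 75 pairs in the after grid and 16 of 75 in the before grid.

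Genes of the mitotic chromosome machinery were taken from 10 lists, which leave part of it out. The members NKP2, CTF19 and NET1, described above, are on none of these lists. Of the 63 listed genes, 4 were members (6.35%), against 473 of all 5041 named genes (9.38%). The listed share does not stand for the whole machinery. SIR2, the silencing deacetylase gene, overlaps YDL041W divergently by 344 bp, and TPD3, the PP2A scaffold subunit gene, overlaps YAL016C-A divergently by 191 bp. SKP1, a subunit gene of the kinetochore complex CBF3, overlaps YDR327W convergently by 195 bp. CDC15, whose cdc15-1 allele is used in a strain of the study, lies on chromosome I (172211 to 175135) and overlaps YAR019W-A divergently by 138 bp. In each of these 4 pairs the partner is unnamed. The lists of the chromosomal passenger complex, condensin, cohesin, histones, the spindle checkpoint and PP1 held 0 members. IPL1, SGO1, HHT1 and HHT2 were not members.

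Families picked by gene name held 49 members among 476 genes (10.3%), close to the 9.38% of all named genes. Cytoplasmic ribosomal protein genes had 16 of 138 (11.6%) in 16 pairs, 7 convergent, 5 divergent and 4 nested, with overlaps from 117 bp (RPS27A) to 449 bp (RPP0). In all 16 the R64 table held 1 member only. CDC genes had 8 of 41 (19.5%), among them CDC6 (605 bp with YJL195C) and CDC13 (319 bp with YDL221W), VPS genes 8 of 44 (18.2%) and nuclear pore NUP genes 3 of 20 (15%). Autophagy ATG genes had 3 of 31 (9.68%), mitochondrial ribosomal protein genes 5 of 66 (7.58%), PEX genes 2 of 27 (7.41%), RAD genes 2 of 30 (6.67%) and SEC genes 2 of 36 (5.56%). Proteasome genes had 0 of 33, Mediator MED genes 0 of 7 and telomerase EST genes 0 of 3.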

How the data were processed

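The authors' deposited files are tables of chromosome lengths, grids of bins and gene annotations for a before and an after version of the genome; all their values are positions or lengths in bp. Every annotation record names Ensembl as its source, per the file headers, and the submitters' processing notes name Bowtie2 (2.2.9) as a tool. The sources used here do not name the genome build or tell how bins were made. Coordinates are 1-based positions in the before version unless another is named.

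Pairs were found from gene extents with a minimum overlap of 1 bp. Codon positions were counted along the coding and stop codon records. Identifiers were matched to locus tags of the R64 gene table, used for names only; 5989 of 6664 matched. The pair finder was tested on simulated data. A test of H3pS10 over H3 was planned and not run, because no file holds a value per library. Members, gene lists and the rule for named genes (the longest and shortest overlaps between named genes of each arrangement, pairs in introns, genes with 3 or more partners, list members, pairs within 20 kb of the chromosome IV arm interval and genes altered in the strains) were chosen with earlier results of these data known. Registers, suffixes, subtelomeric copies and other named examples were chosen after their values were seen. Python 3.11.15, pandas 2.3.3, numpy 2.4.6 and matplotlib 3.10.9 were used.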

Additional observations from a re-analysis of the deposited data

How the results depend on the processing

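The pair count was 552 with the after annotation or exon records, 547 with coding records without stop codons, 546 where coding records without stop codons themselves share bases, and 578 with genes of every biotype. It was 477 without chromosome IV. An overlap minimum of 10, 50 or 100 bp left 536, 505 or 467 pairs, and one of 300 bp left 216 pairs of 426 genes. Names from the R64 table in place of the annotation gave 19 pairs with both members named instead of 35, and OPI9 and BUD19 are among the genes that table does not hold. Measured as a percent of the shorter gene in each pair, the median overlap was 83.1%, in place of 264.5 bp. Chosen after seeing the data, leaving out nested pairs within 10 kb of a chromosome end left 78 of 101 nested pairs. Leaving out the genes of the removed pairs, also chosen then, left 30 of 71 members within 20 kb of an end. Counting registers from overlap length gave 296 partial pairs with wobble facing wobble, as did codon positions. In partial pairs without introns the overlap length fixes the register, so this equality checks the counting only. No paired analysis was possible because only coordinates were given; the H3pS10 alternatives were not run. Positions cannot show whether a reading frame is transcribed or translated.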

Other observations

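Name families rank differently when grouped by their first 3 letters (prefixes with at least 8 nuclear genes, chosen after the values were seen). All 8 YRF genes were members, as given above for their repeats. OPI genes followed with 5 of 8 (62.5%), and all 5 lacked a match in the R64 table. BUD genes had 8 of 24 (33.3%), 4 of them without a match, and IRC genes 6 of 22 (27.3%), 2 of them without. DAL and RSC genes had 3 of 9 each (33.3%), with every gene matched. In all, 22 named genes lacked a match in that table, and 17 of them (77.3%) were members, close to 483 of the 653 unnamed genes without a match (74.0%). Unnamed genes with a match were members in 98 of 970 cases (10.1%).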
